A study of Mus musculus with 12 samples.

Results

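The P2 receptors are the cell-surface receptors for extracellular nucleotides, and 10 of their genes (P2ry1, P2ry2, P2ry6, P2ry12, P2ry13, P2ry14, P2rx1, P2rx4, P2rx6 and P2rx7) were followed among the 32783 genes of 2 count tables. The 10 were taken from a fixed list by symbol, matched to Ensembl mouse identifiers, and all 10 were present in both tables. Male C57Bl6/J mice received AAV2/9 into the CA1 field of both hippocampi at 2 months of age. The vector carried either the murine adenosine A2A receptor (AAV-A2A) or eGFP (AAV-GFP) under GfaABC1D, a promoter made from the human GFAP gene that is selective for astrocytes. Hippocampal cells were collected at 4 months of age, after 2 months of expression, so both groups carried virus and had undergone the same surgery. After myelin removal, magnetic beads against ACSA-2, an astrocyte surface antigen, took 1 cell fraction. Beads against CD11b, the integrin of microglia and other myeloid cells, took another from the cells that ACSA-2 had left. Each fraction had 3 libraries per vector, named by vector and label number. GFP-303, GFP-306, GFP-307 with AAV-GFP, and A2A-309, A2A-310, A2A-313 with AAV-A2A, were the ACSA-2 libraries. GFP-2328, GFP-2329, GFP-2331 with AAV-GFP, and A2A-2343, A2A-2344, A2A-2347 with AAV-A2A, were the CD11b libraries. Each fraction had its own count table, so fraction and table cannot be told apart. The CD11b cells came from what ACSA-2 had left, and the labels do not say whether libraries of the fractions share animals; they were treated as independent.

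P2X receptors are ATP-gated cation channels assembled from P2rx subunits, and P2Y receptors are G protein-coupled receptors that answer to ATP, ADP, UTP, UDP or UDP-sugars. In the brain, P2Y12 is known as the receptor through which microglia extend processes toward released ATP and ADP, P2Y6 is linked to UDP-driven phagocytosis, and P2X7 to inflammasome activation at high ATP. In astrocytes, P2Y1 and P2Y2 couple to Gq and calcium release, whereas P2Y12, P2Y13 and P2Y14 couple to Gi. Ectonucleotidases such as Entpd1 (CD39) and Nt5e (CD73) break ATP down to adenosine, the ligand of the A2A receptor.

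P2ry12, P2ry13 and P2ry14 are shown first because they are neighbours in the genome and lay on opposite sides of the fraction comparison. All 3 are on the minus strand of chromosome 3 (mm10, GENCODE M21 annotation). P2ry14 spans chr3:59113855-59153618, P2ry13 chr3:59207892-59210882 and P2ry12 chr3:59216272-59262871, and all 3 lie inside Med12l, a plus-strand gene at chr3:59005825-59318682. Their exons overlapped those of Med12l over 9 bases of P2ry12 and over 0 bases of the other members. Med12l itself stood at 1.45 to 10.2 CPM (counts scaled to library size) in ACSA-2 and 17.3 to 56.3 CPM in CD11b libraries. The other 7 genes lie elsewhere: P2ry1 at chr3:61002795-61008982, P2rx7 and P2rx4 next to each other at chr5:122643911-122691432 and chr5:122707544-122729738, and P2ry6 and P2ry2 at chr7:100937630-100974649 and chr7:100996568-101012866. P2rx1 is at chr11:72999103-73015200 and P2rx6 at chr16:17561885-17577800. P2ry1 shares 23.1% of its exon bases with Gm37035, which was at 0 to 0.0508 CPM. Whether the counting used strand is not given in the sources used here, so reads of unspliced Med12l transcripts cannot be told apart from reads of these receptors. Of the 10 genes, 9 had promoter windows in RefSeq (GRCm38.p6), 14 windows in all, each taken as the 250 bases before a start. AGGAAG, the core of the ETS motif that PU.1 recognises, was searched on both strands (CTTCCT on the other) and stood in 4 of the 14 windows, against 29.5% of all 32851 windows. It was present in the window of P2ry12, of P2ry13, of the outermost start of P2ry14 and of 1 start of P2rx7, so these letters did not separate the 3 neighbours. The stretches below are 30 bases around the motif, minus strand, with the motif in capitals; they lie at chr3:59263020-59263049 (within an exon of Med12l), chr3:59210912-59210941 and chr3:59153495-59153524 (within an exon of P2ry14 in GENCODE).
P2ry12: aagctaacaagaAGGAAGttccccagtgac
P2ry13: caaggggaaatgAGGAAGgaaaagcagtat
P2ry14: ttcttgaagatgAGGAAGaactcggcttaa

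Total counts were 33937067 to 49217553 in the ACSA-2 and 36098295 to 53206974 in the CD11b libraries. The gene the vector carries, Adora2a, was at 23.2 to 25.6 CPM in AAV-GFP and 655 to 926 CPM in AAV-A2A ACSA-2 libraries (5.02 ± 0.213, log2 fold change ± SE, adjusted p = 1.55e-05). In CD11b libraries it was at 3.76, 4.66 and 8.29 CPM with AAV-GFP and 18.6, 45.2 and 14.96 CPM with AAV-A2A, without overlap (2.20 ± 0.54, adjusted p = 0.28). Summed astrocyte markers (7 genes, Aldoc the most abundant) were 22235 to 35273 CPM in ACSA-2 and 257 to 505 CPM in CD11b. Summed microglial markers (8 genes, Csf1r the most abundant in CD11b, no P2 receptor among them) were 207 to 421 CPM in ACSA-2 and 5850 to 49197 CPM in CD11b. None of these markers was at 0 in either fraction. Choroid plexus markers (6 genes, Ttr the most abundant) set 3 CD11b libraries apart: A2A-2347, GFP-2328 and GFP-2329 held 29762 to 74081 CPM, and A2A-2343, A2A-2344 and GFP-2331 held 12.2 to 117 CPM. These are called choroid-rich and choroid-poor; 2 of the 3 rich libraries were AAV-GFP and 1 was AAV-A2A, and the fitted differences of the 10 receptors are given with and without them. In bulk libraries fewer cells of a type and less RNA per cell cannot be told apart.

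Levels between genes are compared per kilobase of summed exon length (CPM/kb). In ACSA-2 libraries P2ry14, the receptor for UDP-glucose, had the highest mean level of the 10, 14.8 ± 3.10 CPM/kb (SD, n = 6), followed by P2ry12 at 11.6 ± 1.49 and P2rx4 at 7.99 ± 1.48. P2rx7 (3.63 ± 1.02), P2rx6 (3.01 ± 0.981) and P2ry13 (2.87 ± 1.31) formed the middle of the order. P2rx1 (1.81 ± 1.07), P2ry6 (1.12 ± 0.377), P2ry1 (0.671 ± 0.283) and P2ry2 (0.536 ± 0.281) were the lowest. The library ranges of every pair of neighbours in this order overlapped. Within each ACSA-2 library P2ry12 lay above P2rx4 and P2ry6 above P2ry1 on this length. The other neighbours changed order in some library, so their order is one of means only. In CD11b libraries the order was P2ry12 at 1527 ± 1088 CPM/kb, P2ry13 at 706 ± 503, P2ry6 at 111 ± 86.6, P2rx7 at 27.9 ± 19.9 and P2rx4 at 19.7 ± 12.1. P2rx1 (4.66 ± 3.22), P2ry14 (2.96 ± 1.57), P2rx6 (2.29 ± 1.88), P2ry2 (1.31 ± 0.534) and P2ry1 (0.488 ± 0.147) followed. Only P2ry2 and P2ry1 were neighbours whose library ranges did not overlap. Within each CD11b library, however, P2ry13 was at 0.354 to 0.594 times P2ry12, and P2ry6 lay below P2ry13. Among the 3 choroid-poor libraries the same first 7 genes stood in the same order, and only P2rx7 and P2rx4 overlapped among all neighbours. P2ry12, P2ry13 and P2ry6 together made up 95.9% to 98.1% of the summed P2 receptor level per kilobase in every CD11b library, and 26.3% to 39.96% in ACSA-2 libraries.

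**Figure D1:**
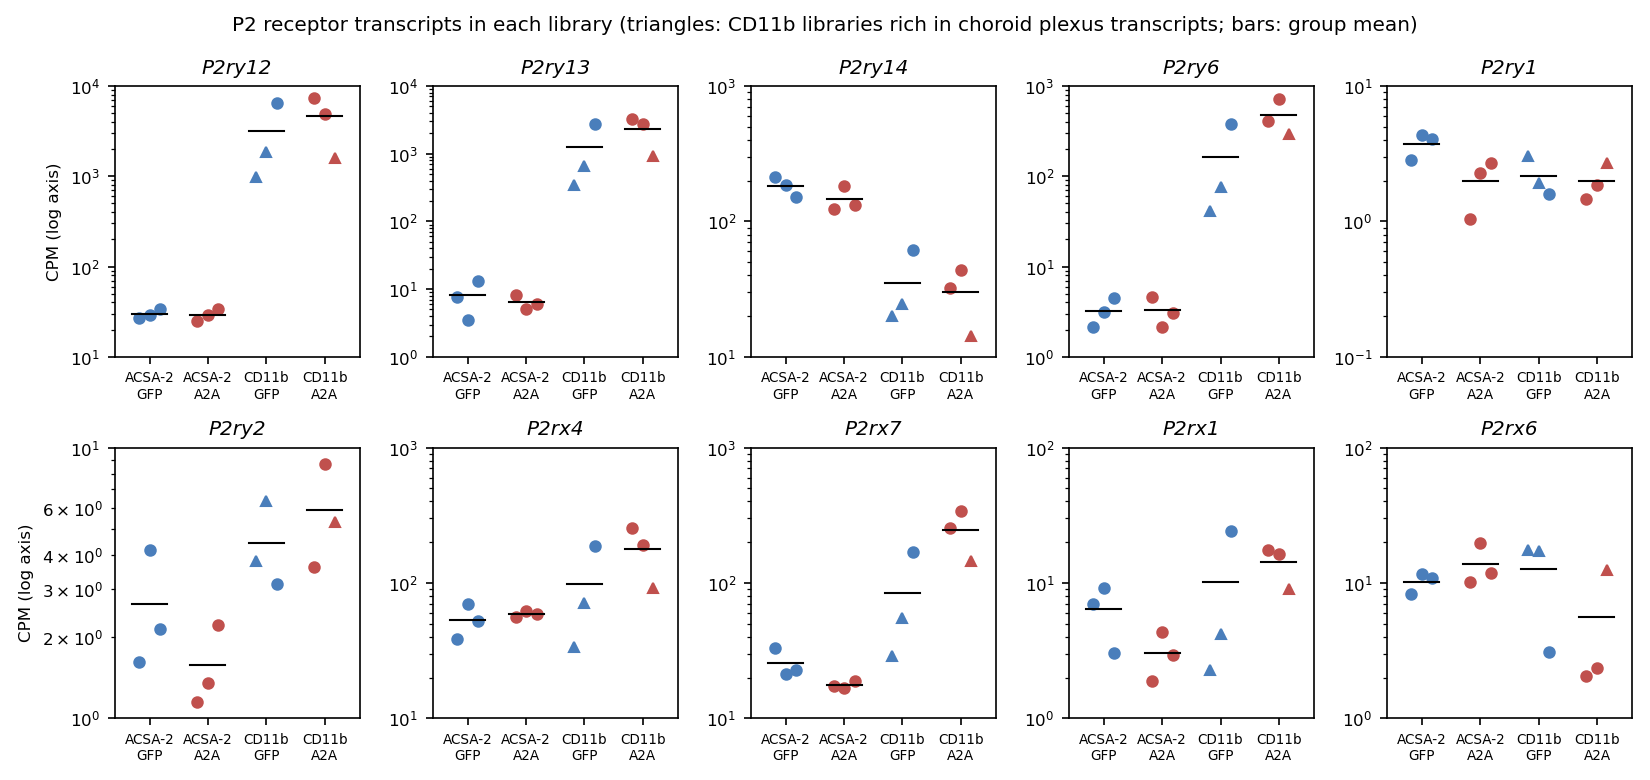
CPM of the 10 P2 receptor genes in each of the 12 libraries (log axis; blue AAV-GFP, red AAV-A2A; triangles are the 3 choroid-rich CD11b libraries; bars are group means of 3 libraries). P2ry12, P2ry13 and P2ry6 were higher in all 6 CD11b libraries than in any ACSA-2 library, P2ry14 was lower, and the choroid-rich libraries lay below the choroid-poor ones for 7 of the 10 genes.

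The first comparison set CD11b against ACSA-2 libraries, averaged over both vectors. Of the 10 genes, 7 were higher in CD11b, 1 (P2ry14) was lower and 2 (P2rx6 and P2ry1) were not called by edgeR's quasi-likelihood test (adjusted p below 0.05 and an absolute log2 fold change above 0.32). Over all 18602 genes tested, 54.1% were called, 29.4% higher and 24.6% lower, so a call between the fractions is common in these data. Without the choroid-rich libraries 6 of the 10 were called higher and 2 lower, where 47.4% of all genes were called, 24.1% higher and 23.4% lower. The median log2 fold change was 1.38 over the 10 genes and 0.13 over all genes tested. Levels of 4 of the 10 did not overlap between the fractions (3 higher, 1 lower), and those of 31.6% of all genes did not (15.8% higher, 15.9% lower).

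The 3 genes with the largest differences were receptors that microglia are known for. P2ry12 was at 26.6, 28.8, 34.1, 24.7, 28.9 and 33.9 CPM in the ACSA-2 libraries (AAV-GFP first) and at 990, 1881, 6563, 7422, 4881 and 1591 CPM in the CD11b libraries (GFP-2328, GFP-2329, GFP-2331, then A2A-2343, A2A-2344, A2A-2347). The lowest CD11b library thus lay far above the highest ACSA-2 library, and the difference was 7.02 ± 0.599 (log2 fold change ± SE; adjusted p = 4.79e-06). P2ry13, a second ADP receptor, was at 3.50 to 13.1 CPM in ACSA-2 and 349 to 3283 CPM in CD11b, a difference of 7.88 ± 0.694 (adjusted p = 5.9e-06). P2ry6, the UDP receptor, was at 2.12 to 4.62 CPM in ACSA-2 and at 41.1 to 725 CPM in CD11b, a difference of 6.43 ± 0.616 (adjusted p = 9.97e-06). The CD11b libraries of all 3 genes fell into the same order of choroid-rich below choroid-poor, and the differences without the rich libraries were 7.78, 8.67 and 7.18.

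P2ry14 was the only gene of the 10 called lower in CD11b with all 12 libraries. It was at 211, 184 and 150 CPM in AAV-GFP and 123, 183 and 132 CPM in AAV-A2A ACSA-2 libraries, against 20.1, 24.6 and 61.3 CPM in AAV-GFP and 32.1, 44.1 and 14.2 CPM in AAV-A2A CD11b libraries. The highest CD11b library, GFP-2331, was below the lowest ACSA-2 library, A2A-309. The difference was -2.32 ± 0.342 (adjusted p = 0.000179) and -1.72 without the choroid-rich libraries (adjusted p = 0.000205). Per kilobase, P2ry14 stood at 0.899 to 1.83 times the level of P2ry12 in each ACSA-2 library and at 0.000995 to 0.00468 times in each CD11b library.

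The ion channel subunits differed by less. P2rx7 was at 16.8 to 33.2 CPM in ACSA-2 and 29.0 to 342 CPM in CD11b, with GFP-2328 alone inside the ACSA-2 range, and differed by 2.77 ± 0.402 (adjusted p = 0.000161; 3.44 without the choroid-rich libraries). P2rx4, a channel that activated microglia are known to raise, was at 38.5 to 69.4 CPM against 33.8 to 253 CPM (1.23 ± 0.383, adjusted p = 0.0176; 1.89 without them). P2rx1, best known from platelets and smooth muscle, was at 1.87 to 9.22 CPM against 2.28 to 24.0 CPM (1.44 ± 0.557, adjusted p = 0.0455). Its call was the least stable: it was lost in 9 of 12 fits that left out 1 library (without GFP-2331 the difference was 0.62, adjusted p = 0.212) and was held without the choroid-rich libraries (2.21, adjusted p = 0.00121). P2ry2, the ATP and UTP receptor, was at 1.15 to 4.19 CPM against 3.13 to 8.66 CPM (1.32 ± 0.42, adjusted p = 0.0196), and its call was lost without the choroid-rich libraries (1.13, adjusted p = 0.131), without A2A-2344 (1.13, adjusted p = 0.0549) and without GFP-2329 (1.15, adjusted p = 0.0577). Platelet markers (4 genes) summed to 2.52 to 8.0 CPM in ACSA-2 and 17.5 to 65.6 CPM in CD11b libraries, with Itga2b the most abundant in ACSA-2 and Gp9 in CD11b, Ppbp at 0 in the AAV-A2A ACSA-2 libraries and Gp1bb at 0 in the AAV-GFP CD11b libraries. Their part in the P2rx1 difference was not tested.

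P2rx6 and P2ry1 were the genes whose CD11b level was higher in choroid-rich libraries. P2rx6, a subunit that forms channels poorly on its own, was at 12.4, 17.6 and 17.3 CPM in the choroid-rich A2A-2347, GFP-2328 and GFP-2329 and at 2.05, 2.37 and 3.10 CPM in the choroid-poor A2A-2343, A2A-2344 and GFP-2331, against 8.27 to 19.6 CPM in ACSA-2. With all libraries it differed by -0.49 ± 0.526 between the fractions (adjusted p = 0.445), and without the choroid-rich libraries by -2.15 ± 0.424 (adjusted p = 0.0017). It was also called without A2A-2347 alone (-1.16, adjusted p = 0.045). Choroid plexus markers summed to 639 to 1169 CPM in ACSA-2 libraries, against 12.2 to 117 CPM in the choroid-poor CD11b libraries. Their part in the P2rx6 difference was not tested. P2rx6 shares 13.9% of its exon bases with Slc7a4 on the other strand. Slc7a4 was at 10.3 to 33.7 CPM in ACSA-2 and 3.34 to 109 CPM in CD11b libraries. P2ry1, the ADP receptor coupled to Gq, was at 1.04 to 4.34 CPM in ACSA-2 and 1.45 to 3.03 CPM in CD11b libraries (-0.39 ± 0.418, adjusted p = 0.449; -0.73 without the choroid-rich libraries, adjusted p = 0.365). Over the 10 genes, 7 lay lower in every choroid-rich than in every choroid-poor library, 2 higher and 1 (P2ry2) overlapped, against 17.5% lower and 18.2% higher over all genes. Within the AAV-GFP libraries alone, 2 of whose 3 CD11b libraries were choroid-rich, P2ry2, P2rx1, P2rx4 and P2rx7 were no longer called (adjusted p from 0.0889 to 0.626).

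**Figure D2:**
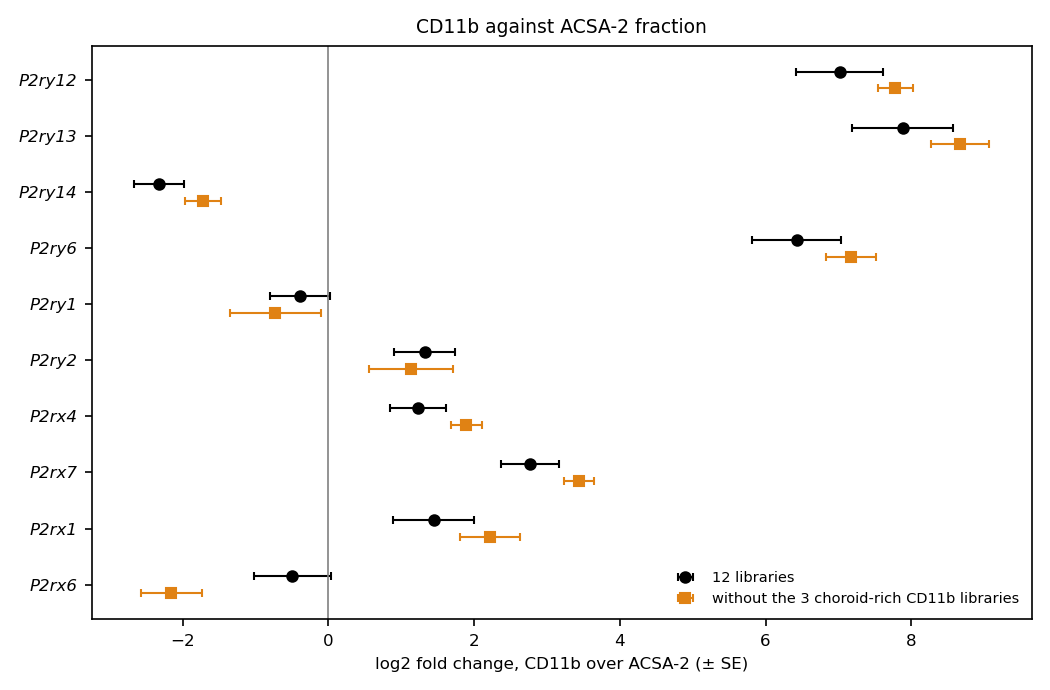
Log2 fold change of the 10 genes in CD11b over ACSA-2 libraries, with its standard error, from all 12 libraries (black circles) and without the 3 choroid-rich CD11b libraries (orange squares). P2ry13, P2ry12 and P2ry6 lay above 6, P2ry14 lay at -2.32 and -1.72, and P2rx6 moved from -0.49 to -2.15.

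The summed level of the 8 microglial markers gave a scale on which each P2 receptor could be followed within a library; this measure was chosen after its values were seen. P2ry12 stood at 86.8 to 169 CPM per 1000 marker CPM in CD11b libraries, while its CPM ran from 990 to 7422. In ACSA-2 libraries it stood at 65.0 to 164 per 1000 marker CPM, overlapping the CD11b range. P2ry6 also overlapped, at 5.17 to 17.0 against 6.37 to 16.8 per 1000 marker CPM. P2ry13 stood lower in ACSA-2 (14.3 to 31.0) than in CD11b (51.2 to 66.7), an order found in 0.172% of all genes. Marker sums were lower in every ACSA-2 library, so a gene with like CPM in both fractions stands higher per marker in ACSA-2. The other 7 receptors stood higher per marker in every ACSA-2 than in every CD11b library, as did 77.3% of all genes. Among these the medians differed 15.4-fold for P2rx7, 22.6-fold for P2ry2, 40.7-fold for P2rx1, 47.6-fold for P2rx4, 104-fold for P2ry1, 113-fold for P2rx6 and 475-fold for P2ry14. Thus the P2ry12 and P2ry6 counts of the ACSA-2 libraries were in the proportion to microglial markers seen in CD11b libraries, and those of P2ry14 and P2rx4 were not; the part of microglia carried into the ACSA-2 fraction in these counts was not tested.

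**Figure D3:**
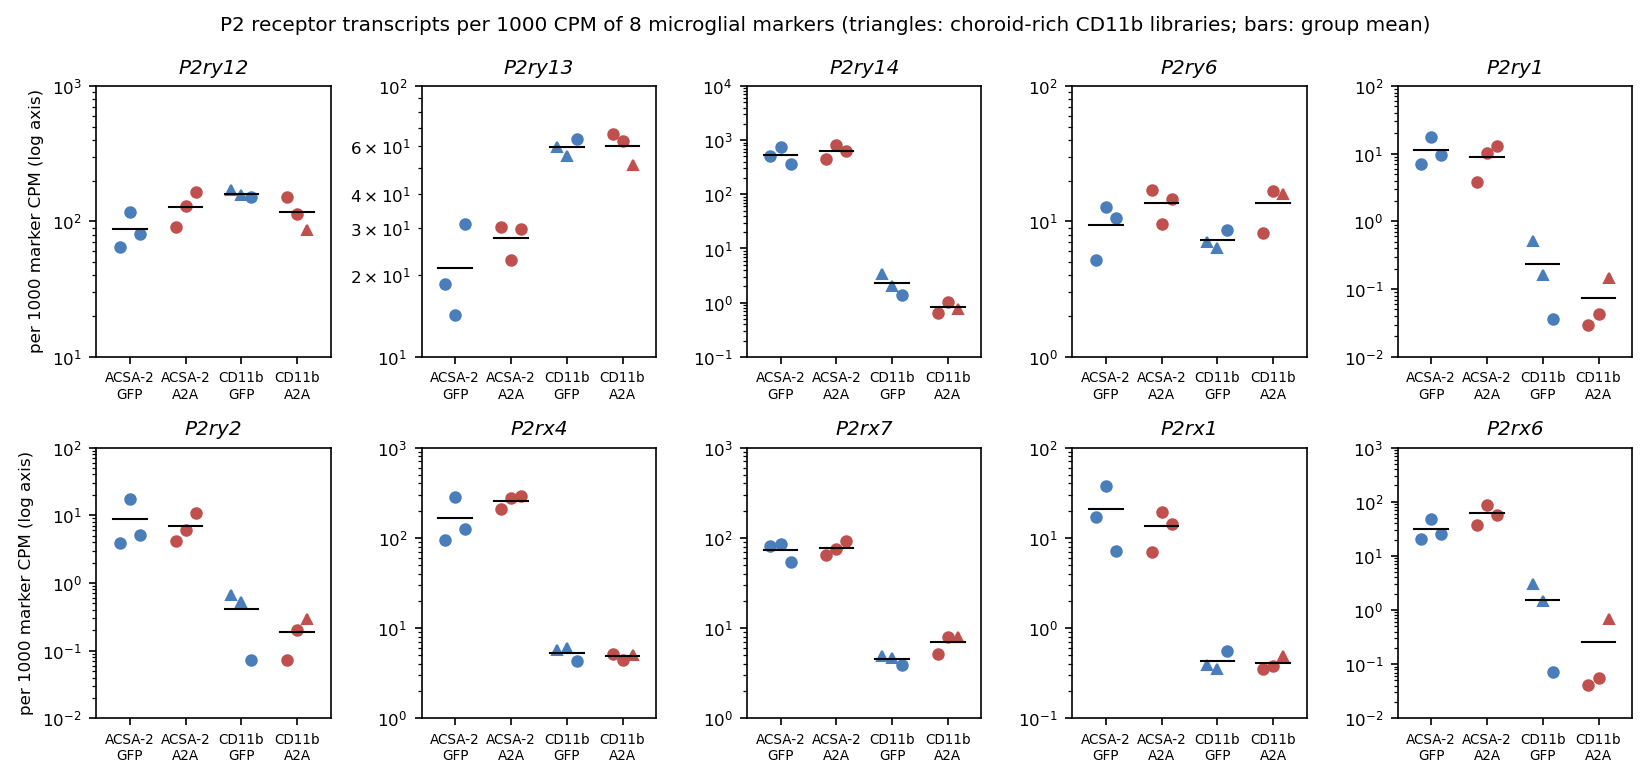
CPM of each gene per 1000 CPM of the 8 summed microglial markers, by library (log axis; blue AAV-GFP, red AAV-A2A; triangles are the choroid-rich CD11b libraries; bars are group means). P2ry12 and P2ry6 overlapped between the fractions, P2ry13 lay higher in CD11b, and P2ry14 lay at 357 to 819 in ACSA-2 and 0.652 to 3.44 in CD11b.

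The second comparison asked whether AAV-A2A changed the receptors within ACSA-2 libraries. None of the 10 was called by edgeR, and 0 of the 10 had an unadjusted p below 0.05, where 3.36% of 16451 genes were called (0.176% higher, 3.19% lower) and an unadjusted p below 0.05 was found for 4.31% (higher) and 8.70% (lower). DESeq2, which called 1071 genes, also called none of the 10. The median log2 fold change was -0.29 over the 10 genes and 0.02 over all genes, with 7 of the 10 below 0, against 48.4% of all genes. P2rx7 was at 33.2, 21.1 and 22.6 CPM with AAV-GFP and 17.3, 16.8 and 18.8 CPM with AAV-A2A; the groups did not overlap, and the difference was -0.51 ± 0.264 (adjusted p = 0.485). P2ry1 was at 2.86, 4.34 and 4.08 CPM with AAV-GFP and 1.04, 2.27 and 2.69 CPM with AAV-A2A, again without overlap (-0.88 ± 0.613, adjusted p = 0.654). Such a lower, non-overlapping order was found in 2 of the 10 genes and in 11.5% of all genes, and 19.4% of all genes did not overlap in either direction. P2rx1 had the lowest fold change, from 7.02, 9.22 and 3.04 CPM to 1.87, 4.35 and 2.95 CPM (-1.04 ± 0.557, adjusted p = 0.501), with overlap between the groups.

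The most abundant receptor of the fraction, P2ry14, was 182 ± 30.5 CPM with AAV-GFP and 146 ± 32.1 CPM with AAV-A2A (SD, n = 3), a difference of -0.29 ± 0.21 (adjusted p = 0.667). P2ry12 was 29.8 ± 3.85 and 29.2 ± 4.59 CPM and P2rx4 was 53.4 ± 15.5 and 58.9 ± 2.85 CPM, differences within the spread between libraries (adjusted p = 1.0 and 0.87). P2ry13, P2ry2, P2ry6 and P2rx6 differed by -0.29, -0.72, 0.04 and 0.46, with standard errors of 0.351 to 0.723. The summed microglial markers ran from 245 to 421 CPM with AAV-GFP and from 207 to 271 CPM with AAV-A2A. Summed oligodendrocyte precursor markers (4 genes) ran from 357 to 539 CPM and from 144 to 274 CPM. By gene the means were 259 and 56.3 CPM (Cspg4), 201 and 165 (Olig1), 5.88 and 4.40 (Pdgfra) and 0.091 and 0.261 (Sox10, at 0 in some libraries). Their part in the receptor values was not tested.

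The third comparison asked the same of the CD11b fraction. GfaABC1D is selective for astrocytes, and Adora2a stood higher in every AAV-A2A than in every AAV-GFP library of this fraction, as given above. Summed astrocyte markers were 257 to 505 CPM in these AAV-A2A and 317 to 370 CPM in these AAV-GFP libraries. The part of astrocyte RNA in the Adora2a values was not tested. Again none of the 10 was called, none had an unadjusted p below 0.05 and every gene overlapped between the groups, where 0 of 16949 genes (0%) were called, 16.0% had an unadjusted p below 0.05 and 22.4% did not overlap. The log2 fold change was above 0 for 7 of the 10, against 47.9% of all genes, with a median of 0.51 over the 10 and -0.05 over all genes. DESeq2 called 798 genes but none of the 10. P2rx7 came nearest: it was at 29.0, 55.5 and 170 CPM with AAV-GFP and 256, 342 and 145 CPM with AAV-A2A, a difference of 1.53 ± 0.664 (adjusted p = 0.326). The overlap came from GFP-2331, above A2A-2347; these are the single choroid-poor AAV-GFP and the single choroid-rich AAV-A2A library. P2ry6 showed the same layout, at 41.1, 76.1 and 375 CPM against 405, 725 and 292 CPM (1.52 ± 0.835, adjusted p = 0.404).

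Within the choroid-rich libraries alone, 1 AAV-A2A library stood against 2 AAV-GFP libraries, a split made after seeing the data. P2ry6 and P2rx7 were higher in that AAV-A2A library, by 2.39 and 1.86, and passed the threshold only on the assumption that a lone library varies like the others, as did 11.4% of all genes (8.44% higher, 2.94% lower). These values compare that library with the other two and cannot show a vector effect. Microglial markers were also higher in that AAV-A2A library, at 18327 CPM against 5850 and 11944 CPM. Within the choroid-poor libraries alone (2 against 1) the differences were 0.57 and 0.79 and neither was called (adjusted p = 1.0), where 0.0173% of all genes were called. Erythrocyte markers (5 genes, Hbb-bs the most abundant, none at 0) summed to 1015 to 5979 CPM with AAV-GFP and 56.7 to 253 CPM with AAV-A2A, and endothelial markers (6 genes, Cldn5 the most abundant, none at 0) to 575 to 1400 CPM and 312 to 396 CPM. Their part in the receptor values was not tested. P2ry12 and P2ry13 differed by 0.53 ± 0.868 and 0.86 ± 0.855 in all CD11b libraries, and by 0.05 and 0.53 with a term for choroid-rich libraries in the fit. The remaining differences in all CD11b libraries were 0.85 (P2rx4), 0.49 (P2rx1), 0.37 (P2ry2), -0.14 (P2ry1), -0.26 (P2ry14) and -1.15 (P2rx6). In the choroid-poor libraries alone these were 0.23, -0.52, 0.95, 0.039, -0.71 and -0.51, and P2ry12 and P2ry13 were at -0.12 and 0.097.

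Per microglial marker, P2rx7 did not overlap between the vectors: it stood at 4.96, 4.64 and 3.92 CPM per 1000 marker CPM with AAV-GFP and at 5.21, 7.93 and 7.91 with AAV-A2A. That order was found in 0.496% of all genes. P2ry14 was the reverse, at 3.44, 2.06 and 1.41 with AAV-GFP and 0.652, 1.02 and 0.776 with AAV-A2A. Its order was found in 11.1% of all genes. Both shares depend also on the marker sum, which ran from 5850 to 43429 CPM with AAV-GFP and from 18327 to 49197 CPM with AAV-A2A. P2ry12 stood at 169, 157 and 151 with AAV-GFP and at 151, 113 and 86.8 with AAV-A2A, without overlap and also lower. The lowest AAV-GFP and the highest AAV-A2A values of P2ry12 were 151.1 and 150.9, so the gap was narrow. With 3 libraries against 3, an exact permutation test on such a ratio cannot give a two-sided p below 0.1, and no call is made from it. Groups that do not overlap keep their order in any subset. The choroid-poor libraries alone (GFP-2331 against A2A-2343 and A2A-2344) therefore give no separate check of P2rx7, P2ry14 and P2ry12 on this scale. Per kilobase, P2rx7 was at 0.916 to 1.07 times the level of its neighbour P2rx4 in the AAV-GFP CD11b libraries. It was at 1.19 to 2.09 times that level in the AAV-A2A libraries. In the choroid-poor libraries the ratios were 1.07 against 1.19 and 2.09, an order again fixed by the lack of overlap.

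**Figure D4:**
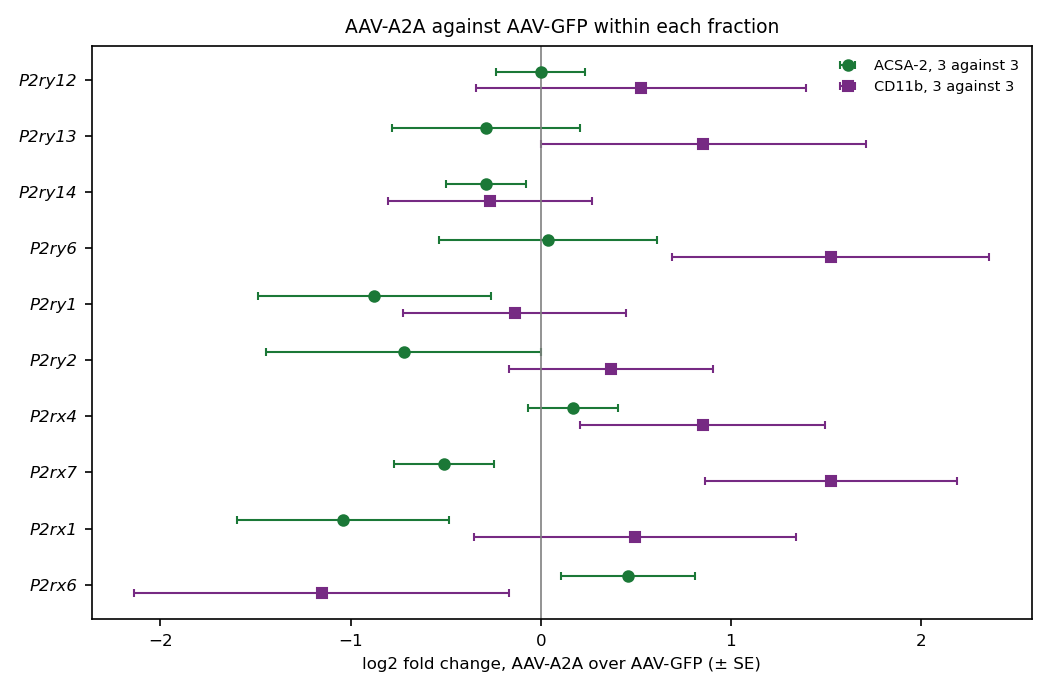
Log2 fold change of the 10 genes in AAV-A2A over AAV-GFP libraries, with its standard error, in ACSA-2 (green circles) and CD11b libraries (purple squares), 3 against 3 in each. None was called in either fraction. P2rx7 lay at -0.51 in ACSA-2 and 1.53 in CD11b.

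The difference between the vector effects of the fractions was tested as an interaction in the fit of all 12 libraries. None of the 10 was called, where 0.403% of 18602 genes were, and 1 of the 10 (P2rx7) had an unadjusted p below 0.05, as did 19.6% of all genes. For P2rx7 the effect in CD11b less that in ACSA-2 was 2.08 ± 0.761 (adjusted p = 0.166). It was 1.36 without the choroid-rich libraries (adjusted p = 0.342), 1.83 with a term for them (adjusted p = 0.0398, where 4.14% of all genes were called, 3.29% higher) and 3.09 without GFP-2331 (adjusted p = 0.014), so the call turned on how these libraries were treated. Without GFP-2331, P2ry6 (3.01, adjusted p = 0.0284) and P2rx1 (3.22, adjusted p = 0.0445) were called as well, where 1286 of 19454 genes were called. The other 9 genes differed by -1.61 (P2rx6) to 1.57 (P2rx1), with adjusted p from 0.426 to 0.96.

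Genes around the receptors were taken from lists of the pathway. Each count of calls between the fractions below stands against 29.4% of all genes called higher and 24.6% called lower, or 24.1% and 23.4% without the choroid-rich libraries. Of 7 other P2 receptors, none passed the low-count filter in ACSA-2, where P2rx5 had the highest level at 0.105 CPM/kb. Between the fractions 3 of the 4 tested were higher in CD11b and none lower (2 of 5 without the choroid-rich libraries). In CD11b, P2ry10b was the highest at 3.83 CPM/kb, with 6.03 to 25.0 CPM against at most 0.434 CPM in ACSA-2 (fraction difference 6.40, adjusted p = 0.000147). P2ry4 was not listed in either table. Of 7 genes of nucleotide release, 1 was higher and 4 were lower in CD11b, also without the choroid-rich libraries. Slc17a9, the vesicular nucleotide transporter, was at 5.04 to 24.4 CPM in CD11b and at 2, 1 and otherwise 0 counts in ACSA-2 libraries. Gjb6 (connexin 30) was the most abundant of the list in ACSA-2, at 269 CPM/kb, and had the largest lower difference (-6.93, adjusted p = 1.11e-06). Neither vector comparison called a gene of these lists.

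Of 9 genes that hydrolyse extracellular nucleotides, 8 were tested between the fractions. In CD11b 2 were higher and 1 lower, where 29.4% of all genes were called higher and 24.6% lower. Entpd2 was the most abundant in ACSA-2 (80.0 CPM/kb) and the most reduced in CD11b (-6.42, adjusted p = 6.38e-08). Entpd1, which hydrolyses ATP and ADP, was higher in CD11b (5.16, adjusted p = 1.28e-05), at 115 to 951 CPM against 10.2 to 18.7 CPM. Enpp2 (autotaxin) had the highest CD11b mean, 2395 CPM/kb, and was the other higher gene, with the largest difference (6.66, adjusted p = 0.00883). It was at 24169 to 31391 CPM in the choroid-rich and 16.5 to 49.2 CPM in the choroid-poor libraries. Its difference turned to -1.69 without the choroid-rich libraries. Without the choroid-rich libraries 2 genes of this list were higher and 3 lower. No gene of this list was called between the vectors, and Entpd8 was not listed.

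The Gq and calcium list held the genes of the pathway that were called between the vectors. In ACSA-2, Itpr2, the main IP3 receptor of astrocytes, fell from 552, 795 and 743 CPM to 239, 237 and 188 CPM (-1.63 ± 0.197, adjusted p = 0.00284), and Plcb1 fell from 139, 177 and 150 CPM to 93.9, 49.9 and 63.1 CPM (-1.15 ± 0.241, adjusted p = 0.0326). These were 2 of 8 genes, where 3.19% of all genes were called lower, and the other 6 were not called. Leaving out 1 library kept the Itpr2 call in 6 of 6 fits and lost that of Plcb1 in 5 of 6 (adjusted p up to 0.15); both were lost in 1 fit of all 12 libraries (adjusted p = 0.21 and 0.169). In CD11b neither was called (-0.21 and -1.12), and the interaction was not called for either (adjusted p = 0.264 and 0.935). Gna11 was the most abundant of the list in ACSA-2 (52.5 CPM/kb) and Itpr2 in CD11b (22.0 CPM/kb); between fractions 2 were higher, led by Itpr3 (2.65, adjusted p = 0.00634), and 2 lower, led by Plcb1 (-3.70, adjusted p = 1.07e-06). The other higher gene, Itpr1 (1.89, adjusted p = 0.0451), was at 87.9 to 173 CPM in the choroid-rich and 11.9 to 14.4 CPM in the choroid-poor libraries, and stood at -0.59 (adjusted p = 0.264) without the rich ones, where 1 gene of the list was higher and 2 lower.

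Of 6 genes of Gi and its effectors, none was called between the vectors, and 3 were higher and 1 lower in CD11b (4 and 2 without the choroid-rich libraries). Gnai2 was the most abundant in both fractions, at 119 CPM/kb in ACSA-2 and 189 CPM/kb in CD11b. Pik3cg, a kinase driven by G protein subunits, led the higher genes (7.37, adjusted p = 0.000162) and Gnao1, a neuronal and astrocytic Gi/o subunit, was lower (-5.45, adjusted p = 1.24e-06). Kcnk13 (THIK-1), the potassium channel that P2Y12 gates in microglia, was at 23.9 to 241 CPM in CD11b and 1.15 to 6.52 CPM in ACSA-2. All 5 inflammasome genes, which act downstream of P2X7, were higher in CD11b and without overlap, an order found in 15.8% of all genes, led by Il1b (5.73, adjusted p = 1.36e-06), and all 5 remained higher without the choroid-rich libraries. Gsdmd was the most abundant of the 5 in both fractions, at 3.26 and 78.9 CPM/kb. None of the 5 was called between the vectors in either fraction.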

How the data were processed

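Hippocampal ACSA-2 and CD11b fractions were sequenced after full-length cDNA amplification (SMART-Seq v4, no molecular identifiers). The authors deposited raw counts per Ensembl gene, made per the labels and the study's methods with cutadapt 1.10, STAR 2.5.3 on mm10 and HTSeq 0.6.1p1 (unique, unambiguous reads); the strand setting is not given in the sources used here. The 25 unnamed columns of the CD11b table were empty. Symbols came from an annotation table that matched 27813 of 27866 and 30289 of 30359 identifiers. Libraries were grouped by their labels. Each vector comparison was fitted within its fraction; the fraction and interaction comparisons used all 12 libraries and the 25442 genes in both tables.

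Counts were tested with edgeR 4.0.16 (R 4.3.3; TMM factors, low-count filter, robust quasi-likelihood test, Benjamini-Hochberg adjustment over all genes), with thresholds of adjusted p 0.05 and log2 fold change 0.32, checked on simulated counts. Standard errors were derived from the F statistic. CPM used TMM factors of the 12-library fit, and exon lengths came from GENCODE M21. CD11b libraries over 1000 CPM of choroid plexus markers were called rich, a split added after seeing the data. DESeq2 1.42.0, other size factors and filters, and leaving out libraries were alternatives. Replicates differed beyond sampling noise in all 12 within-group pairs (chi-square per degree of freedom 55.2 or more). Nothing in the labels states pooling, so p-values measure the spread between these samples. The 10 receptors were all named; of each pathway list, the text names genes called between vectors, the most abundant gene per fraction and the largest fraction difference each way; Entpd1, Kcnk13, Itpr1 and the genes overlapping a receptor were added after their values were seen. The receptors and lists were chosen with earlier results of these data known.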

Additional observations from a re-analysis of the deposited data

How the results depend on the processing

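No paired analysis was possible because the groups share no replicate numbers in the labels, which do not say whether the fractions share animals. Between fractions, the directions of P2ry12, P2ry13, P2ry6, P2rx7, P2rx4, P2rx1, P2ry2 and P2ry14 held under every alternative, and the calls of P2ry12, P2ry13, P2ry6 and P2ry14 held as well; P2rx6 turned to 0.31 in the AAV-GFP libraries alone, where 4377 genes were called against 10055, and P2rx1 lost its call with median-of-ratios size factors (1.39, adjusted p = 0.0516). In ACSA-2 the number of genes called between vectors was 553, 1071 with DESeq2, 156 in 1 fit of all libraries and 272 to 448 without 1 library. P2ry12 there was -0.00042 and turned to 0.0011 with DESeq2, 0.00101 with median-of-ratios size factors and 0.0076 with at least 10 counts in every library; without 1 library it ran from -0.14 to 0.11, P2ry6 from -0.28 to 0.33, P2rx4 from -0.039 to 0.41 and P2ry13 from -0.64 to 0.25. In CD11b, 0 genes were called, 798 with DESeq2, 3 without the choroid-rich libraries and 2224 in these alone. P2ry1 there turned from -0.14 to 0.039 without the choroid-rich libraries, 0.19 in these alone and 0.11 with a term for them, and P2ry12 and P2rx1 turned to -0.12 and -0.52 without them. Without 1 library P2ry1 ran from -0.48 to 0.21 and P2ry14 from -0.61 to 0.35. The interaction called 75 genes, 1552 with DESeq2, 10 with median-of-ratios size factors, 345 with at least 10 counts in every library, 0 without the choroid-rich libraries, 770 with a term for them and 0 to 1286 without 1 library. P2ry14 there turned from 0.09 to -0.36 without the choroid-rich libraries and -0.35 with a term for them (without 1 library -0.29 to 0.75), and P2ry12 from 0.59 to -0.054 without them. With the longest transcript as length, P2ry14 in ACSA-2 was 21.0 in place of 14.8 CPM/kb. On that length P2rx4 ran from 9.88 to 17.8 and P2ry12 from 10.5 to 14.5 CPM/kb in ACSA-2, and P2rx4 had the higher mean. In CD11b P2rx4 had a higher mean than P2rx7. The order of these pairs thus depended on the length used. Each cause was not tested. Standard errors of the vector effects in CD11b were 0.534 to 0.984 on the log2 scale with 3 libraries a group.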
